A study of Drosophila melanogaster with 12 samples.

Results

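The 86 genes described here encode subunits of the mitochondrial complexes of oxidative phosphorylation in *Drosophila melanogaster*, and were read out in nuclei of outer photoreceptors of the eye. They are all genes of the table, out of 13929, whose FlyBase symbol starts with ND- (complex I), with Sdh and a letter from A to D (complex II), with UQCR- (complex III), with COX and a digit (complex IV) or with ATPsyn (complex V), with 1 ATP synthase gene left out. Of these, 62 are subunit genes proper, 34 in complex I, 4 in complex II, 6 in complex III, 8 in complex IV and 10 in complex V. The other 24 are paralogs with a symbol that ends in L or in L and a digit, copies known mainly for expression in the testis, and are given apart. The L of ND-MNLL belongs to the name of its subunit, so it was kept among the 62.

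RNA was sequenced from pools of male flies collected at ZT 9, in a cycle of 12 hours of light. In all flies Rh1-Gal4, which is active in outer photoreceptors only, drove GFP on the nuclear membrane, by which the nuclei were enriched. In Rh1>ClkDN it also drove a dominant negative form of the clock transcription factor Clock, and in Rh1>Ctrl it drove LacZ in its place. There were 3 biological replicates each of Rh1>ClkDN and Rh1>Ctrl at D10, and of Rh1>ClkDN and Rh1>Ctrl at D1, for which the titles of the samples give day 2. The questions were how the subunit genes differed between genotypes at each age and between ages in each genotype.

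The respiratory chain passes electrons from NADH (complex I) and succinate (complex II) through complexes III and IV to oxygen, and pumps protons across the inner mitochondrial membrane as it does so. Complex V, the ATP synthase, makes ATP as the protons flow back. Photoreceptors of flies are known for a high demand for ATP, since phototransduction keeps ion pumps at work. Most subunits are encoded in the nucleus and imported as proteins, and a minority are encoded in mitochondrial DNA. The genes of mitochondrial DNA were not analysed here. The RNA here came from nuclei, so that the values describe nuclear transcripts and not the amount of any complex.

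Levels are in CPM, a gene's counts relative to its library's total, after TMM scaling over the 12 libraries, with the standard deviation (SD) over 3 samples. Total counts per library were between 1356529 and 5635951. Of the 62 subunit genes, 60 had at least 10 counts in at least 3 libraries. ND-MNLL had no count in any library, and its annotated exons lie within those of CG45089 on the same strand. ND-B8 had 19 counts in all. The 60 genes had a median of 58.5 counts per library, and a median level of 13.6 CPM against 10.4 CPM over all genes tested. Their median exon length of 862 bases was shorter than the 2258.5 bases of all genes tested. The 62 genes were spread over the genome, with 12 on X, 12 on 2L, 11 on 2R, 13 on 3L, 13 on 3R and 1 on 4.

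Photoreceptor markers such as ninaE, the gene of Rhodopsin 1, were present in every library, and their part of the counts moved with genotype. Of 10 such markers, 10 were called lower in Rh1>ClkDN at D1 and 10 at D10, and their summed level was 25990 to 36250 CPM in Rh1>ClkDN and 58430 to 114800 CPM in Rh1>Ctrl. Several of them, such as trp, Arr2 and ninaC, are phototransduction genes whose transcripts the paper reports as lowered by ClkDN. The paper found photoreceptors of Rh1>ClkDN intact at D1, and retinal degeneration at later ages in a cycle of light and dark. The summed level of 8 glial markers was 1081 to 1761 CPM in Rh1>ClkDN and 229.5 to 508.6 CPM in Rh1>Ctrl, of which Eaat1 alone, a glutamate transporter, made up 578.9 to 1373 CPM in Rh1>ClkDN and 46.2 to 99.9 CPM in Rh1>Ctrl. Without Eaat1 the sums at D10 overlapped, with 388.0 to 395.3 CPM in Rh1>ClkDN and 268.4 to 452.9 CPM in Rh1>Ctrl, and at D1 they did not, with 498.0 to 603.6 CPM in Rh1>ClkDN and 183.3 to 247.8 CPM in Rh1>Ctrl. Of the glial markers 4 of 8 were called higher in Rh1>ClkDN at D1, and 2 of 7 at D10, where 4 of the 7 were below 0 (median log2 fold change -0.39). The summed level of 7 pigment and cone cell markers was 2779 to 3937 CPM in Rh1>ClkDN and 583.7 to 1410.0 CPM in Rh1>Ctrl, most of it from w, which encodes a transporter of eye pigment precursors and was the 1 marker called at each age. The paper gives the flies as mutant for w, with a w+ marker in the UAS transgenes, which differ between Rh1>ClkDN and Rh1>Ctrl. The part of transgene reads in the values of w was not tested. Without w the sums were 109.1 to 238.8 CPM in Rh1>ClkDN and 101.8 to 108.8 CPM in Rh1>Ctrl at D1, and 85.0 to 101.7 CPM in Rh1>ClkDN and 111.9 to 162.1 CPM in Rh1>Ctrl at D10, where 6 of the 7 were below 0 (median -0.31). All markers of these 3 lists had counts in every library. Their part in the differences between genotypes given here was not tested, and in bulk samples fewer cells of a type and less RNA per cell cannot be told apart. In all, 3 libraries stood apart from their groups. Replicate 3 of Rh1>Ctrl at D1 had counts for 13097 genes, against 9267 to 11915 in the other libraries. Replicate 2 of Rh1>Ctrl at D10 had the fewest counts. Replicate 1 of Rh1>ClkDN at D1 had 2284 CPM over 9 fat body and hemocyte markers, against 670.7 and 831.1 CPM in the other replicates.

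Per kilobase of exon, ATPsynC, the subunit that forms the ring of the ATP synthase in the membrane, had the highest level of the 86 genes, with a mean of 120.1 CPM per kb over 12 libraries. It was followed by UQCR-11L with 71.0, UQCR-11, a small subunit of complex III, with 58.9, ND-MLRQ with 56.1 and COX6B with 45.3 CPM per kb. The lowest of the 60 were ND-13A with 5.88 and ND-24 with 5.71 CPM per kb. On this scale SdhA, the flavoprotein of complex II, stood at 21.4 CPM per kb, above the iron-sulfur protein SdhB (9.86) and the membrane anchors SdhC (8.90) and SdhD (11.6). Subunits of 1 complex therefore did not have 1 common level in these nuclei. The order of genes depended on the length used. Per kilobase of coding sequence ATPsynC was still the highest, with 541.9 CPM per kb, and UQCR-11 (344) stood above UQCR-11L (122).

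Summed by complex, the subunit genes had their highest level in Rh1>ClkDN at D1. Complex V had 672, 579 and 572 CPM in Rh1>ClkDN at D1, against 407, 428 and 224 CPM in Rh1>Ctrl at D1, and 449, 430.4 and 436 CPM in Rh1>ClkDN at D10, against 249, 294 and 286 CPM in Rh1>Ctrl at D10. Complex IV had 249, 211 and 219 CPM in Rh1>ClkDN at D1, against 149, 147 and 108 CPM in Rh1>Ctrl at D1, and 147, 156 and 159 CPM in Rh1>ClkDN at D10, against 102, 106 and 110.3 CPM in Rh1>Ctrl at D10. For complexes IV and V, every library of Rh1>ClkDN was thus above every library of Rh1>Ctrl of the same age. Complex I overlapped between genotypes at both ages, with means of 589 ± 65.5 CPM in Rh1>ClkDN and 482 ± 96.9 CPM in Rh1>Ctrl for D1 (n = 3 each), and 389.8 ± 12.9 CPM and 383 ± 39.3 CPM in the same order at D10. Complex II overlapped as well. Complex III overlapped at D1, with 271 ± 17.8 CPM in Rh1>ClkDN and 228 ± 35.5 CPM in Rh1>Ctrl, and did not overlap at D10, where Rh1>ClkDN was the lower genotype with 177 ± 19.0 CPM against 218 ± 22.9 CPM.

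**Figure D1:**
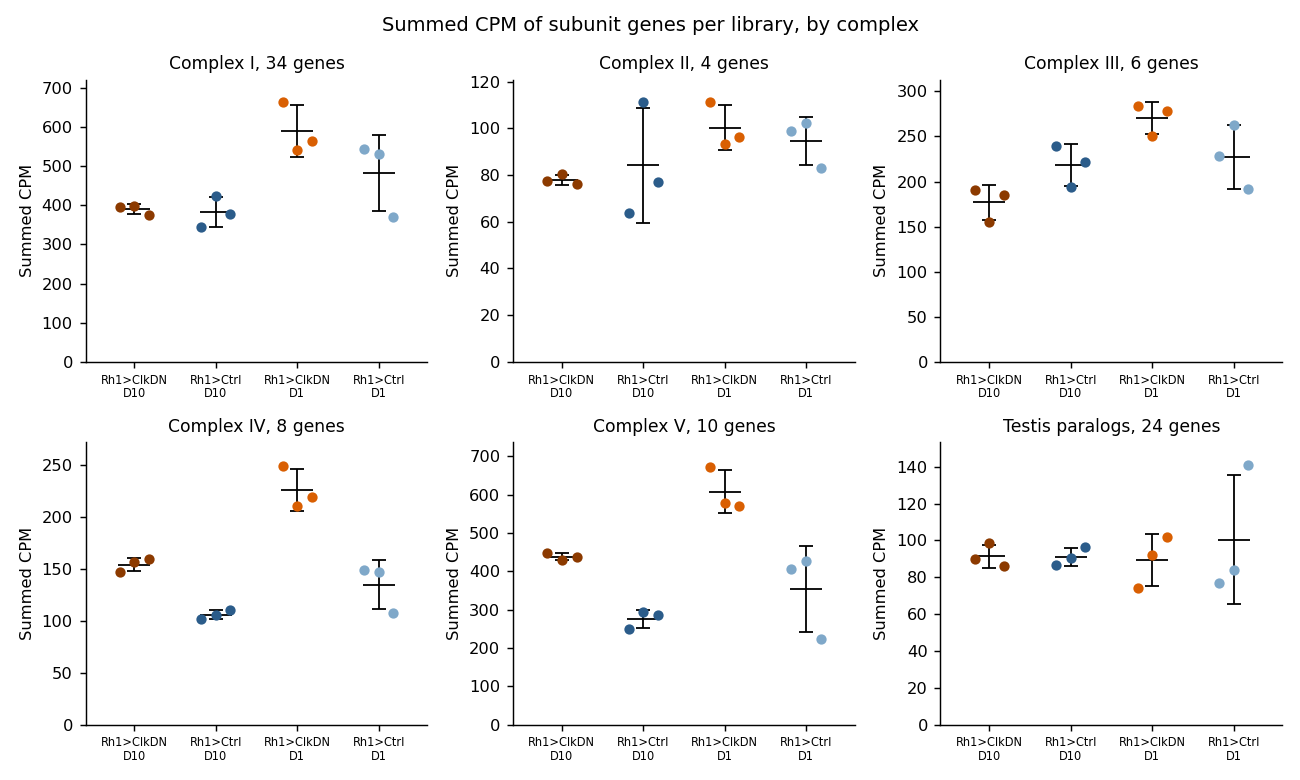
Summed CPM (vertical axis, from 0) of the subunit genes of each complex and of the 24 testis paralogs, per library. Points are libraries, in the order of replicates 1 to 3, and the bars give the mean and the SD over 3 samples of each group. For complexes IV and V, the lowest library of Rh1>ClkDN lies above the highest of Rh1>Ctrl at each age.

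Of the 60 genes, 43 had their highest group mean in Rh1>ClkDN at D1, which held the highest mean of 25.1% of all genes tested. The other groups held 10 (Rh1>Ctrl at D1), 4 (Rh1>ClkDN at D10) and 3 (Rh1>Ctrl at D10). The lowest group mean was in Rh1>Ctrl at D10 for 32 genes and in Rh1>ClkDN at D10 for 22 genes, against 32.2% and 24.6% of all genes tested. By single libraries, replicate 1 of Rh1>ClkDN at D1 was the highest for 17 of the 60 genes, and replicate 2 of Rh1>Ctrl at D10 was the lowest for 19 and the highest for 11.

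Genes were called where the fold change was over 1.5 and edgeR's quasi-likelihood test gave a p, adjusted after Benjamini and Hochberg over all genes tested, under 0.05. At D1, 5 of the 60 subunit genes were called higher in Rh1>ClkDN and 0 lower, where 10.2% of all genes tested were called higher and 5.86% lower. The share of the subunit genes called was thus not above that of all genes. The median log2 fold change was 0.34, against 0.04 over all genes, and 45 of 60 fold changes were above 0. Beside the 0 called lower, 2 subunit genes were lower at an unadjusted p under 0.05 in edgeR's test, and DESeq2 called 1 of all members lower. Without replicate 3 of Rh1>Ctrl the median was 0.12, against 0.13 over all genes, and 8 of all members were called higher and 4 lower. Without replicate 1 of Rh1>Ctrl 2 were called higher, and without replicate 3 of Rh1>ClkDN 3 were.

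The 5 genes were ND-B18 and ND-B14.5A of complex I, COX6B of complex IV, and ATPsynC and ATPsyndelta of complex V. COX6B, a subunit known from mammals to lie on the outer face of cytochrome c oxidase, had 62.9, 50.3 and 63.3 CPM in Rh1>ClkDN, against 20.9, 22.3 and 10.4 CPM in Rh1>Ctrl. The groups were far apart, and the log2 fold change was 1.63 ± 0.31 (standard error, SE) with an adjusted p of 0.0056 in edgeR's test. ND-B18, an accessory subunit, had 27.9, 26.0 and 25.2 CPM in Rh1>ClkDN, against 11.1, 6.95 and 5.97 CPM in Rh1>Ctrl (log2 fold change 1.64 ± 0.32, edgeR adjusted p = 0.0062). These are the only 2 of the 5 that remained called with each replicate of either group left out in turn.

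ATPsyndelta, a subunit of the central stalk that turns in the ATP synthase, had 52.6, 48.7 and 45.3 CPM in Rh1>ClkDN at D1, against 20.5, 25.9 and 13.5 CPM in Rh1>Ctrl. Its log2 fold change was 1.21 ± 0.28 (edgeR adjusted p = 0.0148). ND-B14.5A, an accessory subunit of complex I, had 35.0, 33.4 and 34.4 CPM in Rh1>ClkDN, against 15.4, 18.1 and 13.2 CPM in Rh1>Ctrl (1.07 ± 0.24, edgeR adjusted p = 0.0143). In both genes, each library of Rh1>ClkDN was above each of Rh1>Ctrl. The same held for ATPsynC, with 350.4, 328 and 332 CPM in Rh1>ClkDN against 203, 217 and 125 CPM in Rh1>Ctrl (0.82 ± 0.23, edgeR adjusted p = 0.0344). All 10 genes of complex V had a log2 fold change above 0 at D1, with a median of 0.58, and 8 of them were not called.

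**Figure D2:**
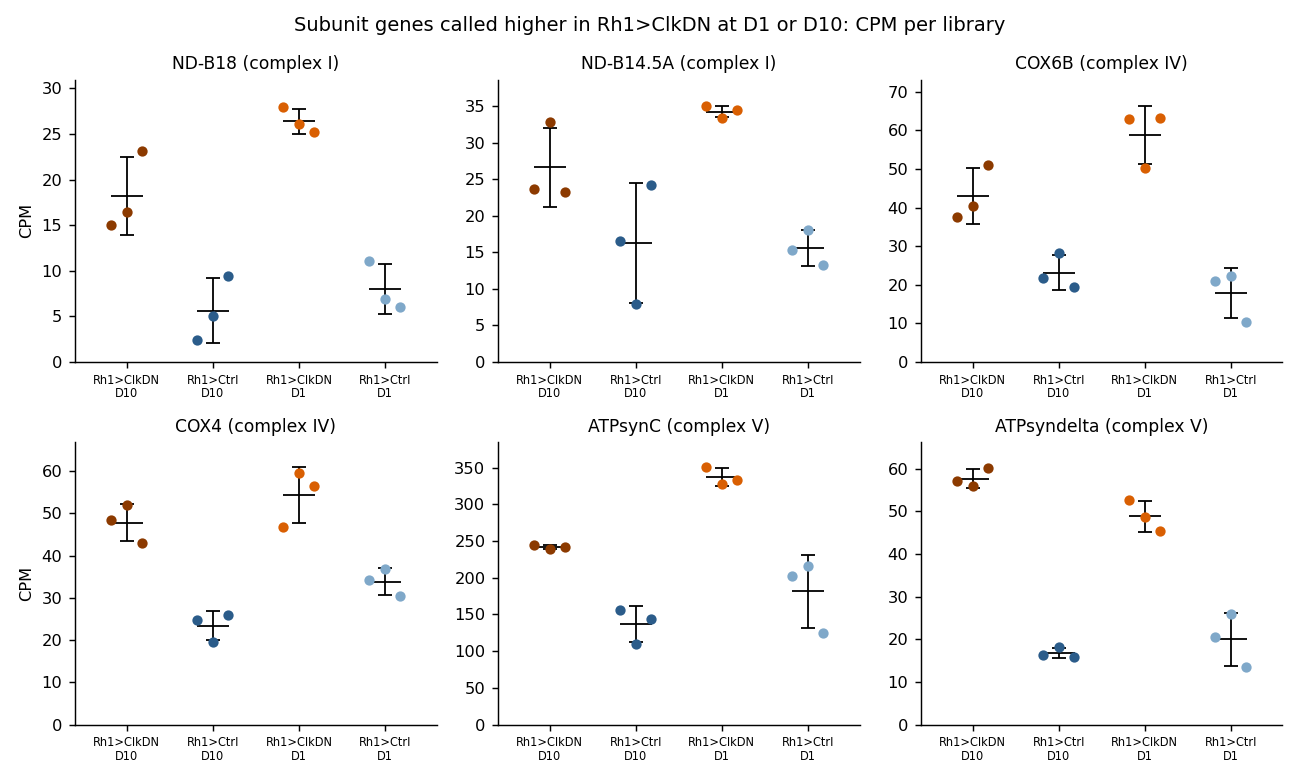
CPM (vertical axis, from 0) per library of the 6 subunit genes called higher in Rh1>ClkDN at D1 or at D10. Points are libraries, and the bars give the mean and the SD over 3 samples of each group. In COX6B, ATPsynC, ATPsyndelta, COX4 and ND-B18, each library of Rh1>ClkDN lies above each of Rh1>Ctrl of the same age, and in ND-B14.5A this holds at D1 only.

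On the dm6 genome, 4 of the 5 genes lie on X: ND-B14.5A at chrX:2172526-2173432 on the plus strand, ATPsyndelta at chrX:10212970-10217393 on the plus strand, ND-B18 at chrX:15063733-15064926 on the plus strand, and COX6B at chrX:19740537-19744335 on the minus strand. ATPsynC lies at chr3R:31216145-31219630 on the minus strand. X holds 19.4% of the 62 subunit genes and 17.5% of all genes tested. The share of X among all genes called higher was not computed, so that the 4 of 5 describes these genes only. The other subunit genes on X that were tested were not called at D1, with log2 fold changes from -0.83 (ND-18) to 0.54 (UQCR-14). COX6B shares 9.4% of its exon bases with CG18809 on the same strand, which was itself called higher in Rh1>ClkDN at D1 (log2 fold change 1.16) and at D10 (1.69). ATPsyndelta shares 35.6% of its exon bases with CG2962 on the other strand, which had a mean of 0.297 CPM. The strand setting of the counting is not given in the sources used here, and reads in shared bases cannot be assigned to 1 gene with certainty.

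At D10, 5 of the 60 subunit genes were called higher in Rh1>ClkDN and 1 lower, where 15% of all genes tested were called higher and 8.2% lower. The median log2 fold change was 0.09, against 0.01 over all genes, with 34 of 60 above 0. ATPsyndelta had the largest fold change of the 60, with 57.1, 55.9 and 60.1 CPM in Rh1>ClkDN, against 16.2, 18.1 and 15.9 CPM in Rh1>Ctrl. The groups did not overlap, the log2 fold change was 1.74 ± 0.22 with an adjusted p of 0.00084 in edgeR's test, and the call held under every alternative tried. COX4, a subunit of cytochrome c oxidase encoded in the nucleus, had 48.5, 51.9 and 43.1 CPM in Rh1>ClkDN, against 24.7, 19.5 and 25.9 CPM in Rh1>Ctrl (0.96 ± 0.24, edgeR adjusted p = 0.0196). At D1 COX4 had 46.9, 59.6 and 56.4 CPM in Rh1>ClkDN, against 34.2, 36.8 and 30.5 CPM in Rh1>Ctrl, and was not called (0.61 ± 0.20, edgeR adjusted p = 0.0753).

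ATPsynC had 244, 239 and 242 CPM in Rh1>ClkDN at D10, against 156, 110.0 and 144 CPM in Rh1>Ctrl (log2 fold change 0.76 ± 0.20, edgeR adjusted p = 0.0277). COX6B had 37.5, 40.4 and 51.1 CPM, against 21.7, 28.2 and 19.5 CPM (0.86 ± 0.26, edgeR adjusted p = 0.0421), and ND-B18 had 15.0, 16.4 and 23.1 CPM, against 2.37, 5.06 and 9.42 CPM (1.58 ± 0.48, edgeR adjusted p = 0.0422), in the same order of genotypes. With ATPsyndelta, these 3 genes were called higher at both ages, ND-B14.5A at D1 only and COX4 at D10 only. The calls of COX4, ATPsynC, COX6B and ND-B18 at D10 were each lost when any 1 replicate of Rh1>ClkDN at D10 was left out, which left 1 of the members then tested called higher, and without replicate 3 of Rh1>Ctrl 4 of all members were called higher, against 7 with all libraries. Without the 2 called genes of each complex, a choice made after their values were seen, the sums of complexes IV and V overlapped between genotypes at D10 and did not at D1. At D1, complex V then had 193.9 to 269.4 CPM in Rh1>ClkDN and 86.1 to 185.9 CPM in Rh1>Ctrl, and complex IV had 98.9 to 139.1 CPM in Rh1>ClkDN and 66.6 to 94.1 CPM in Rh1>Ctrl. At D10, complex V had 133.9 to 147.5 CPM in Rh1>ClkDN and 76.2 to 165.7 CPM in Rh1>Ctrl, and complex IV had 60.7 to 64.8 CPM in Rh1>ClkDN and 55.2 to 64.9 CPM in Rh1>Ctrl.

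ND-MWFE, an accessory subunit of complex I at chr2R:13158666-13160190, was the 1 subunit gene called lower at D10. It had 6.81, 11.0 and 9.20 CPM in Rh1>ClkDN, against 16.6, 25.3 and 16.9 CPM in Rh1>Ctrl, with no overlap (log2 fold change -1.15 ± 0.33, edgeR adjusted p = 0.0371). At D1 it had 12.6, 17.7 and 16.8 CPM in Rh1>ClkDN, against 13.7, 13.9 and 16.7 CPM in Rh1>Ctrl (0.02 ± 0.27). The call at D10 was lost when any 1 replicate of Rh1>ClkDN, or replicate 3 of Rh1>Ctrl, was left out. Without replicate 1 of Rh1>Ctrl, 5 of all members were called lower at D10. ND-MWFE shares 15.2% of its exon bases with Nrk on the same strand and 19.8% with TppII on the other, neither of which was called at D10.

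In complex II, no gene was called in any comparison at the report's settings. SdhD, a membrane anchor, had 10.2, 13.4 and 16.6 CPM in Rh1>ClkDN at D10, against 5.75, 4.34 and 6.70 CPM in Rh1>Ctrl, and 11.7, 10.1 and 7.27 CPM in Rh1>ClkDN at D1, against 12.5, 10.7 and 15.1 CPM in Rh1>Ctrl. The genotypes did not overlap at D10 (log2 fold change 1.16 ± 0.38, edgeR adjusted p = 0.0568) and overlapped at D1 (-0.45 ± 0.34). DESeq2, and 1 fit over all 12 libraries, called SdhD higher at D10. SdhB was called lower with age in Rh1>ClkDN when replicate 2 of D1 was left out. The interaction of genotype and age in SdhD was 1.61 ± 0.50, with an adjusted p of 0.17 in edgeR's test. SdhA, SdhB and SdhC overlapped between genotypes at both ages and were not called, with log2 fold changes between -0.53 and 0.72.

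Between ages, the median subunit gene was lower at D10 than at D1 in both genotypes, and single genes passed the test in Rh1>ClkDN. In Rh1>ClkDN, 14 of the 60 were called lower at D10 and 0 higher (0 also at an unadjusted p under 0.05 and with DESeq2), where 6.18% of all genes tested were called lower and 8.45% higher. The median log2 fold change was -0.64, against -0.03 over all genes, and 55 of 60 were below 0. For 36 of the 60, every library of D10 was under every library of D1, which held for 16.2% of all genes tested. The 14 calls belong to the fit of the 6 libraries of Rh1>ClkDN. In 1 fit over all 12 libraries, whose estimate of the spread includes Rh1>Ctrl, the median was -0.63 and 0 of the 14 remained called, and 303 genes of the whole table were called, against 1236 in the fit of 6. DESeq2 on the 6 libraries called 15 members lower. With 1 library left out, 6 were called lower without replicate 1 of D10, 6 without replicate 2, 5 without replicate 3, and 9 without replicate 3 of D1.

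**Figure D3:**
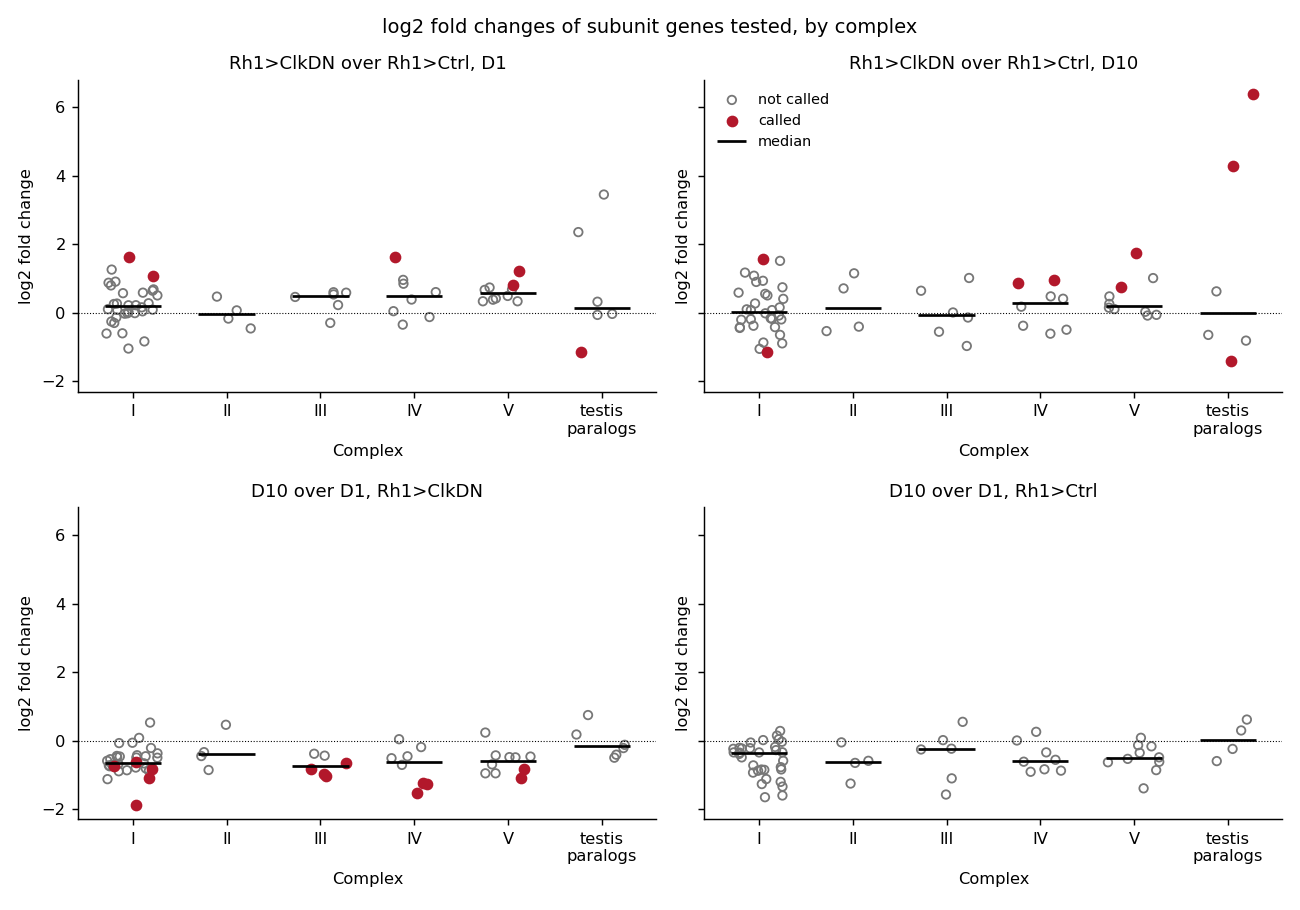
Log2 fold changes (vertical axis) of the subunit genes tested, by complex, and of the testis paralogs, in 4 comparisons of 3 samples against 3. Filled points were called, open points were not, and lines are medians. The 14 filled points below 0 in the comparison of D10 with D1 in Rh1>ClkDN lie in complexes I, III, IV and V, and no point is filled in the same comparison in Rh1>Ctrl.

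The genes called lower with age in Rh1>ClkDN were 5 of complex I (ND-49, ND-75, ND-ACP, ND-ASHI and ND-B14.5B), 4 of complex III (UQCR-C1, UQCR-C2, UQCR-14 and UQCR-6.4), 3 of complex IV (COX5A, COX7B and COX7C) and 2 of complex V (ATPsynD and ATPsynF). The medians by complex were -0.64 in complex I, -0.39 in complex II, -0.73 in complex III, -0.61 in complex IV and -0.59 in complex V. In complex III, 6 of 6 genes were below 0. COX7B, a small subunit of cytochrome c oxidase, had 8.62, 11.0 and 10.8 CPM at D10, against 28.8, 24.9 and 19.7 CPM at D1, with no overlap (log2 fold change -1.27 ± 0.26, edgeR adjusted p = 0.0026). COX7C, another, had 3.21, 4.70 and 8.30 CPM at D10, against 14.4, 17.9 and 14.2 CPM at D1 (-1.53 ± 0.36, edgeR adjusted p = 0.0073). Both remained called with any 1 of the 6 libraries left out, as did ATPsynF.

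ATPsynF, a small membrane subunit of the ATP synthase, had 16.0, 17.1 and 19.96 CPM at D10, against 51.7, 31.8 and 29.4 CPM at D1 (log2 fold change -1.09 ± 0.25, edgeR adjusted p = 0.0056). UQCR-6.4, a small subunit of complex III, had 10.4, 12.2 and 9.87 CPM at D10, against 26.1, 21.9 and 18.4 CPM at D1 (-1.03 ± 0.26, edgeR adjusted p = 0.0103). In neither gene did the ages overlap. ND-ACP, the mitochondrial acyl carrier protein that is also a subunit of complex I, had 23.8, 29.6 and 21.3 CPM at D10, against 43.9, 40.5 and 40.7 CPM at D1 (-0.75 ± 0.20, edgeR adjusted p = 0.0145). UQCR-C1, a core protein of complex III, had 58.7, 41.8 and 64.6 CPM at D10, against 83.9, 82.7 and 92.6 CPM at D1 (-0.65 ± 0.17, edgeR adjusted p = 0.0146). Here too the ages did not overlap, and the fold was smaller than in COX7B and COX7C.

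ND-49 and ND-75, core subunits of complex I, were at the edge of the threshold, with log2 fold changes of -0.62 ± 0.20 and -0.83 ± 0.24 and edgeR adjusted p of 0.0433 and 0.0260. For some genes the value at D1 rests on replicate 1 of Rh1>ClkDN, the library with the high fat body and hemocyte markers. COX5A had 11.2, 9.87 and 13.9 CPM at D10, against 51.2, 15.3 and 16.3 CPM at D1 (-1.24 ± 0.40, edgeR adjusted p = 0.0413), and without that library the log2 fold change was -0.43 and the call was lost. The call of UQCR-C2 was lost without it as well. ND-B14.5B, an accessory subunit of complex I, had 3.81, 6.58 and 3.59 CPM at D10, against 30.6, 10.3 and 10.5 CPM at D1 (-1.88 ± 0.45, edgeR adjusted p = 0.0078), and without that library it remained called with a log2 fold change of -1.16. Its call was lost without replicate 1 of D10 and without replicate 3 of D10. Over all members, 15 were called lower without replicate 1 of D1, and the median was -0.49. UQCR-14 lies with all of its exon bases opposite CG32576, so that its values may hold reads of that gene. The same limit holds in part for UQCR-6.4 (40.5% opposite POSH), COX7C (15.7% opposite oys) and ND-ASHI (5.6% opposite Fum1). With age in Rh1>ClkDN, oys was called higher (log2 fold change 0.59) and Fum1 lower (-1.21), and CG32576 and POSH were not called. ATPsynC and UQCR-11 passed the adjusted p at less than 1.5-fold, with log2 fold changes of -0.48 ± 0.11 and -0.44 ± 0.13 (edgeR adjusted p of 0.0053 and 0.0319).

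**Figure D4:**
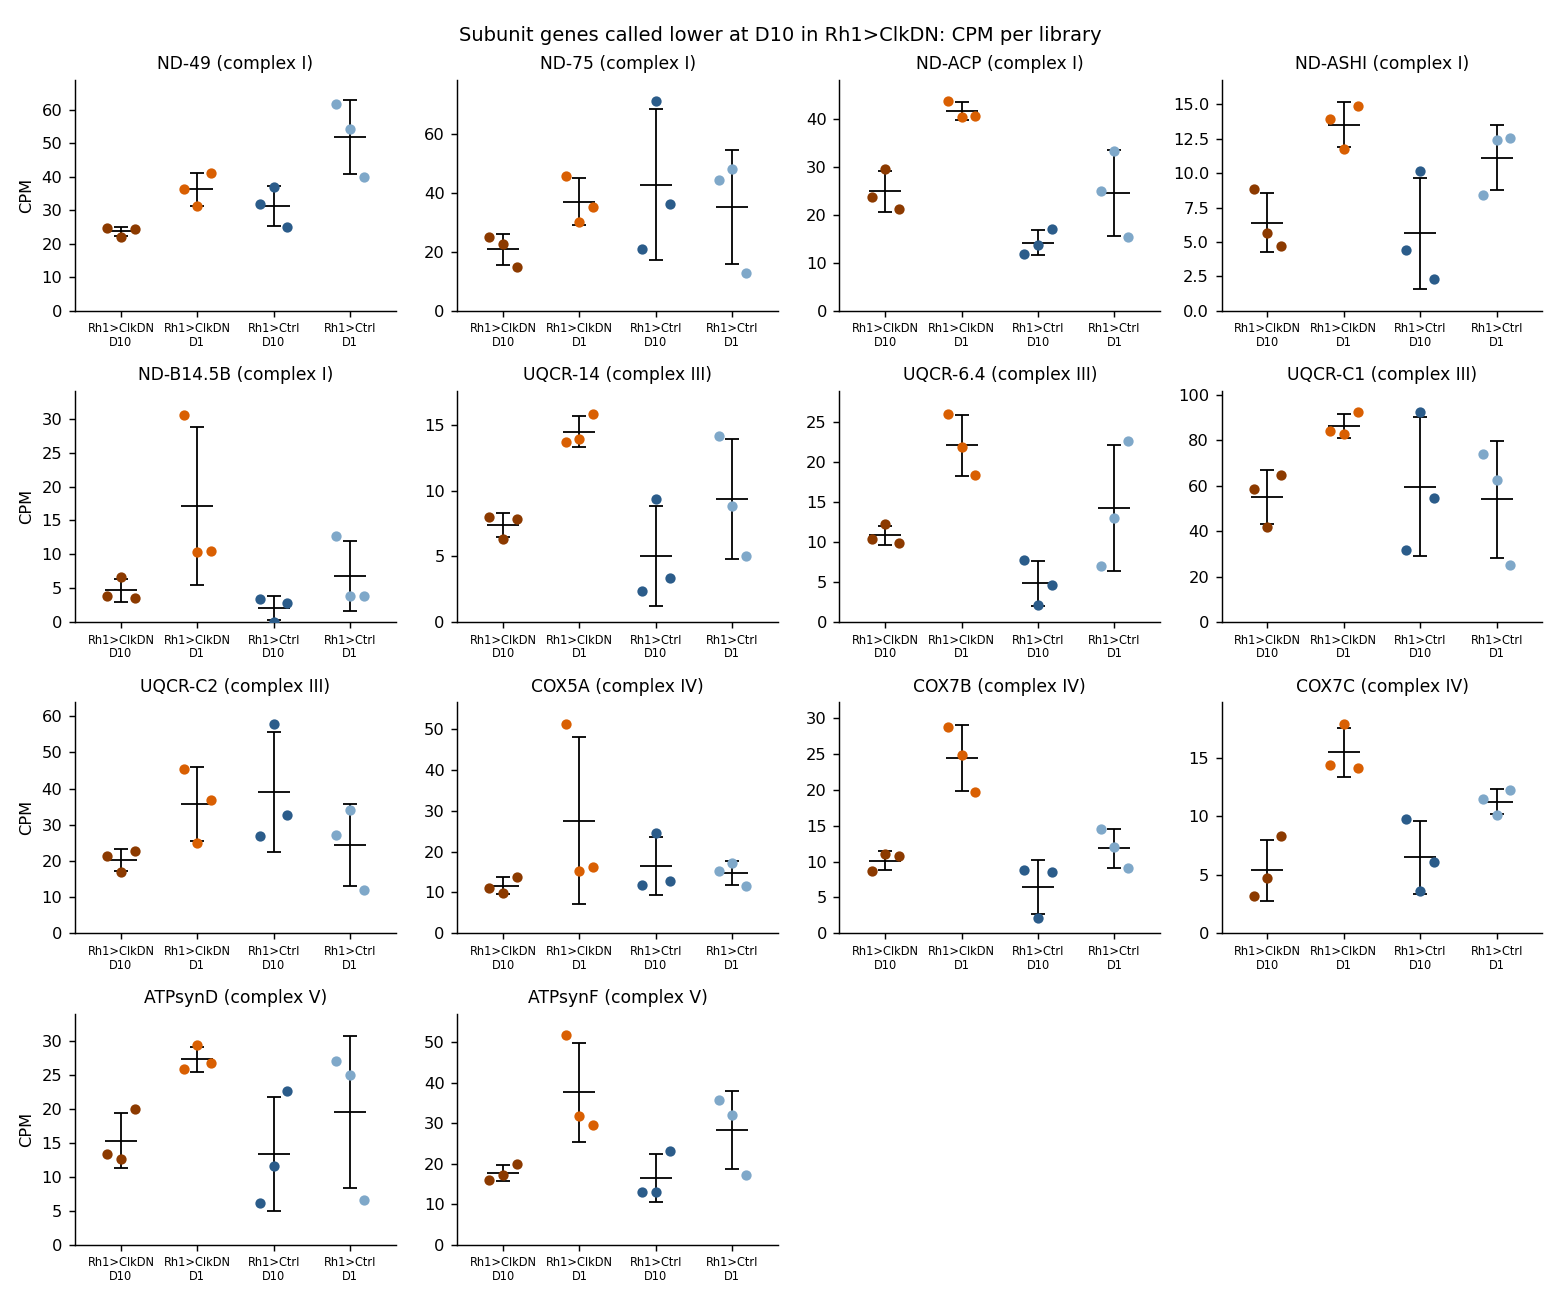
CPM (vertical axis, from 0) per library of the 14 subunit genes called lower at D10 than at D1 in Rh1>ClkDN, with Rh1>Ctrl beside them. Points are libraries, and the bars give the mean and the SD over 3 samples of each group. In COX7B the D10 libraries of Rh1>ClkDN lie between 8.62 and 11.0 CPM and the D1 libraries between 19.7 and 28.8 CPM, and in COX5A the mean at D1 is set by 1 library at 51.2 CPM.

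In Rh1>Ctrl, 0 of the 60 subunit genes were called in either direction, where 0.332% of all genes tested were called lower at D10 and 0.193% higher. In edgeR's test 7 of the 60 had an unadjusted p under 0.05, all 7 lower at D10, and DESeq2 called 0. The median log2 fold change was -0.49, against -0.03 over all genes, and 51 of 60 were below 0. For 9 of the 60, every library of D10 was under every library of D1, against 8.3% of all genes tested. In both comparisons of ages 46 of the 60 genes (76.7%) were below 0, against 32.1% of all genes tested in both. That count follows largely from the 51 below 0 here and the 55 in Rh1>ClkDN, so that it adds no separate support. ND-49 had 31.8, 36.9 and 24.9 CPM at D10 in Rh1>Ctrl, against 61.7, 54.1 and 39.9 CPM at D1. The ages did not overlap, and the log2 fold change was -0.84 ± 0.30 (edgeR adjusted p = 0.313). The spread between replicates was wider in Rh1>Ctrl, with a biological coefficient of variation of 0.239 in the fit of Rh1>ClkDN and 0.407 in that of Rh1>Ctrl. In UQCR-11, for example, the libraries of D10 held 73.3, 70.7 and 70.4 CPM in Rh1>ClkDN and 163, 18.8 and 114 CPM in Rh1>Ctrl. ATPsynB, of the peripheral stalk of the ATP synthase, held 42.7, 39.7 and 24.9 CPM in Rh1>ClkDN and 18.3, 53.5 and 24.7 CPM in Rh1>Ctrl at D10.

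That the genes were called in 1 genotype and not in the other does not make the genotypes different in their change with age. In the test of the interaction of genotype and age over the 12 libraries, 0 of the 60 genes were called at an adjusted p under 0.05 in edgeR's quasi-likelihood test, where 0.777% of all genes were, and 4 had an unadjusted p under 0.05. DESeq2 called 0 of the 60. The 4 were ND-MWFE, SdhD, UQCR-C2 and COX5A, with adjusted p between 0.17 and 0.365. The median interaction was -0.25 on the log2 scale, against 0.00 over all genes. It was 0.05 without replicate 3 of Rh1>Ctrl at D1 and 0.17 without all 3 libraries that stood apart, so that its sign rests on those libraries.

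Markers of muscle, a tissue rich in mitochondria, moved with age in the same direction. Of 8 muscle markers, 6 were tested in Rh1>ClkDN, 5 of which were called lower at D10, among them Mhc, the myosin heavy chain. The summed level of the 8 was 74.9 to 105.4 CPM at D10 and 186.3 to 261.2 CPM at D1 in Rh1>ClkDN, and 120.1 to 387.1 CPM at D10 and 268.1 to 428.5 CPM at D1 in Rh1>Ctrl. The library of 387.1 CPM was replicate 2 of Rh1>Ctrl at D10, which also held the highest values of ND-75 (70.9 CPM) and UQCR-C2 (57.9 CPM) of all libraries. It was the highest library for 11 of the 60 subunit genes and the lowest for 19, and had the highest sum of photoreceptor markers (114800 CPM). Between genotypes, the median log2 fold change of muscle markers was -0.92 at D1 and -0.83 at D10, where that of the subunit genes was 0.34 and 0.09. The part of muscle RNA in the values of the subunit genes was not tested. Of the 10 photoreceptor markers, 0 were called lower and 1 was called higher at D10 in Rh1>ClkDN.

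Other nuclear genes for mitochondrial proteins are given for comparison, from lists of the pathway. The share of all genes called lower with age in Rh1>ClkDN was 6.18%. Of 8 further subunits of the complexes with other symbols, 2 were called lower with age in Rh1>ClkDN, Cyt-c1 and sun. The median log2 fold change of the 8 was -0.71. For sun the mean at D1 was set by replicate 1 of Rh1>ClkDN, the library with the high fat body and hemocyte markers, at 65.64 CPM. Replicate 3 at D10 (16.37 CPM) was above replicates 2 and 3 at D1, so that the ages overlapped. Whether the call of sun holds without replicate 1 of D1 is not given here. Of 14 genes of the citric acid cycle and pyruvate dehydrogenase, 8 were called lower and 0 higher with age in Rh1>ClkDN, with a median of -0.73 and 14 of 14 below 0. Of 6 genes of carriers and channels, 3 were called lower, among them the ADP/ATP carriers sesB and Ant2. Of 54 genes of mitochondrial ribosomes tested out of 72 in the table, 8 were called lower, with a median of -0.51. Of 9 assembly factors tested 1 was called lower, and of 8 regulators of mitochondrial genes 1. Among 12 genes of glycolysis, 1 was called higher and 1 lower, with a median of -0.35. In Rh1>Ctrl no gene of these lists was called between ages.

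Between genotypes at D1, where 10.2% of all genes were called higher, 3 of the 6 carriers and channels (sesB, Ant2 and porin), 2 of the 14 genes of the citric acid cycle (kdn, the citrate synthase, and Pdha) and 2 of 10 assembly factors tested were called higher in Rh1>ClkDN. The assembly factors were AIF and Cox17, a copper chaperone of cytochrome c oxidase. Cox17 averaged 14.6 CPM in Rh1>ClkDN and 3.34 CPM in Rh1>Ctrl at D1, and 9.93 CPM in Rh1>ClkDN and 2.22 CPM in Rh1>Ctrl at D10, with log2 fold changes of 2.05 ± 0.44 and 2.05 ± 0.52 (edgeR adjusted p of 0.0107 and 0.0219). No gene of these 3 lists was called lower in Rh1>ClkDN at either age. At D1, 2 of 57 genes of mitochondrial ribosomes were called higher, and none of the 8 further genes with other symbols, the 11 genes of glycolysis or the 8 regulators that were tested. At D10, where 15% of all genes were called higher, 1 of 5 carriers and channels, 1 of 14 genes of the citric acid cycle, 1 of 7 assembly factors and 3 of 36 genes of mitochondrial ribosomes were. Of 12 genes of glycolysis 0 were called higher and 1 lower, Eno (-0.86 ± 0.22, edgeR adjusted p = 0.0212), where 8.2% of all genes were called lower. Below 0 were 10 of these 12 (median -0.37) and 10 of the 14 genes of the citric acid cycle (-0.23). Above 0 were 4 of 5 carriers and channels (0.65) and 25 of 36 genes of mitochondrial ribosomes (0.35).

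Of the 24 testis paralogs, 18 had a mean of fewer than 10 counts per library. All 18 had counts in replicate 3 of Rh1>Ctrl at D1, which held 150 of their counts, against 8 to 65 in the other libraries. It was also the highest library for 13 of the 18. The 6 others were ND-49L, ND-51L1, ND-51L2, UQCR-11L, COX5BL and COX7CL, which were tested in both comparisons of genotypes. At D1, 1 of the 6 was called lower and 0 higher, and at D10 2 were called higher and 1 lower, where the shares of all genes were 10.2% higher and 5.86% lower at D1 and 15% higher and 8.2% lower at D10. Both called higher, ND-49L and ND-51L2, passed the filter on low counts at D10 only through the libraries of Rh1>ClkDN, so that they had to differ to be tested.

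ND-49L, a paralog of the core subunit ND-49 at chr3R:25358285-25360034, had 25.2, 19.97 and 18.8 CPM in Rh1>ClkDN at D10, against 0, 0 and 0.418 CPM in Rh1>Ctrl. At D1 it had 10.1, 16.5 and 11.5 CPM in Rh1>ClkDN, against 0, 0 and 3.77 CPM in Rh1>Ctrl. At both ages the genotypes were far apart, and of the 4 libraries of Rh1>Ctrl other than replicate 3 at D1 and replicate 3 at D10, none had a count. In counts this was 295 over the libraries of Rh1>ClkDN and 2 over those of Rh1>Ctrl at D10, a ratio per scaled library total of 98.1 (exact conditional binomial interval at 95%, 26.9 to 814, which covers counting error only). The gene was called at D10 (edgeR adjusted p = 0.00023) and not at D1 (edgeR adjusted p = 0.061), where the 12 counts of replicate 3 of Rh1>Ctrl were the only ones in that group. Without that replicate it was called at D1 too. It then passed the filter on low counts only through the libraries of Rh1>ClkDN, so that this call is no separate support. ND-49 itself was lower in the mean of Rh1>ClkDN at both ages and not called (log2 fold change -0.60 ± 0.24 at D1 and -0.44 ± 0.25 at D10).

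**Figure D5:**
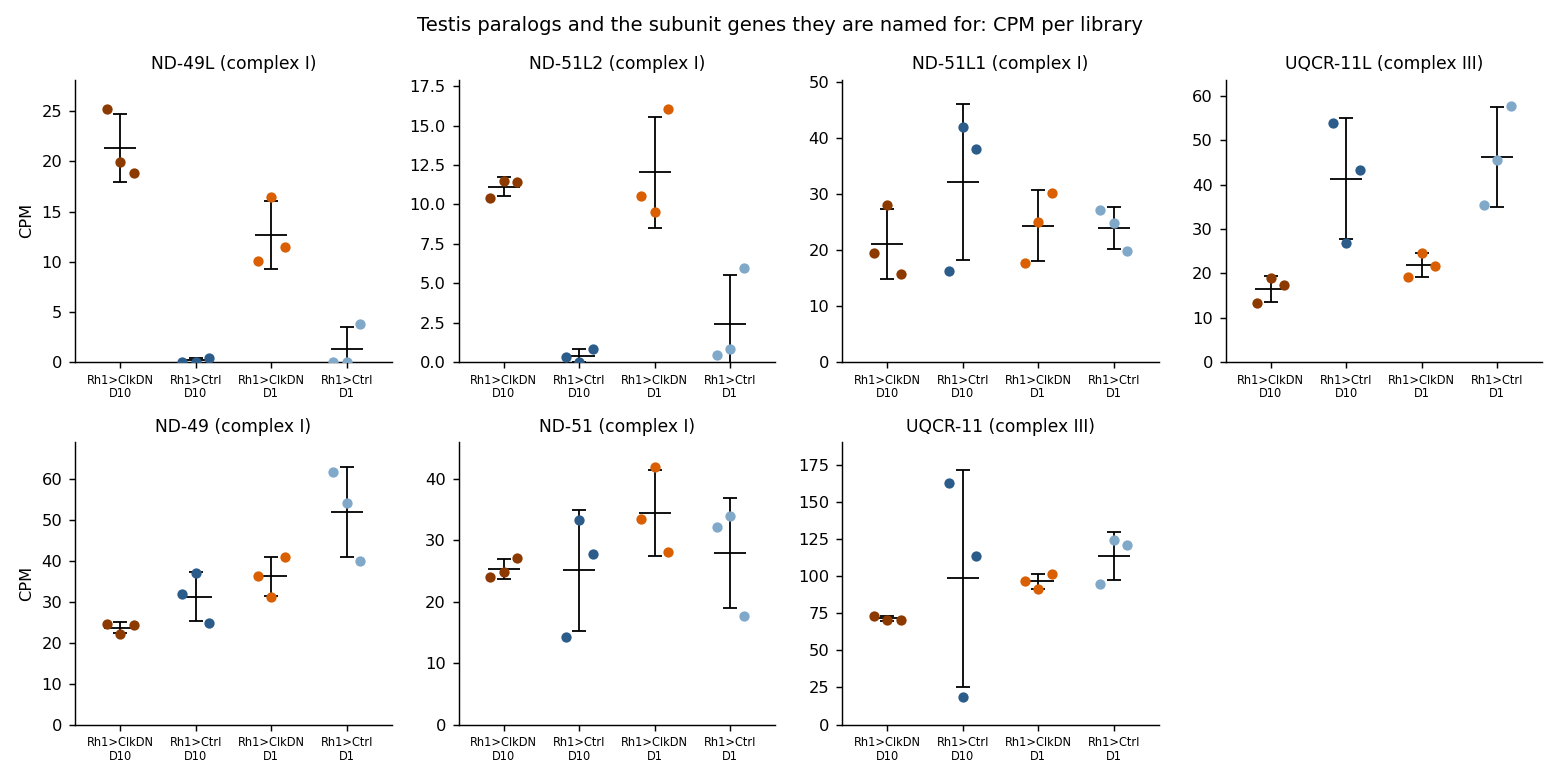
CPM (vertical axis, from 0) per library of 4 testis paralogs (top row) and of the subunit genes they are named for (bottom row). Points are libraries, and the bars give the mean and the SD over 3 samples of each group. ND-49L and ND-51L2 lie at 9.54 CPM or more in every library of Rh1>ClkDN and at 5.97 CPM or less in every library of Rh1>Ctrl, and UQCR-11L lies lower in each library of Rh1>ClkDN than in each of Rh1>Ctrl.

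ND-51L2, a paralog of ND-51, the subunit of complex I that binds NADH, had 10.4, 11.5 and 11.4 CPM in Rh1>ClkDN at D10, against 0.339, 0 and 0.837 CPM in Rh1>Ctrl. The libraries of Rh1>ClkDN had 152 counts and those of Rh1>Ctrl 5, a ratio per scaled library total of 20.2 (8.48 to 63.2 by the same interval), and the gene was called in edgeR's test (adjusted p = 0.0015). At D1 it had 10.5, 9.54 and 16.1 CPM, against 0.410, 0.842 and 5.97 CPM, in the same order of genotypes, and was not called (edgeR adjusted p = 0.0753). Without replicate 3 of Rh1>Ctrl it was called, but it too then passed the filter on low counts only through the libraries of Rh1>ClkDN. The other paralog, ND-51L1, had 24.3 ± 6.34 CPM in Rh1>ClkDN and 23.9 ± 3.71 CPM in Rh1>Ctrl for D1, and 21.0 ± 6.28 CPM in Rh1>ClkDN and 32.1 ± 13.9 CPM in Rh1>Ctrl for D10 (n = 3 each), and overlapped between genotypes at both ages.

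UQCR-11L, a paralog of UQCR-11, was the paralog with the most reads, and moved the other way. It had 19.2, 24.6 and 21.6 CPM in Rh1>ClkDN at D1, against 35.5, 45.5 and 57.8 CPM in Rh1>Ctrl, and 13.2, 19.0 and 17.3 CPM in Rh1>ClkDN at D10, against 53.8, 26.8 and 43.3 CPM in Rh1>Ctrl. The genotypes did not overlap at either age, and the log2 fold changes were -1.14 ± 0.24 (edgeR adjusted p = 0.0098) at D1 and -1.40 ± 0.32 (edgeR adjusted p = 0.0139) at D10. The call at D1 was lost without replicate 3 of Rh1>ClkDN, and that at D10 without any 1 replicate of Rh1>ClkDN or replicate 3 of Rh1>Ctrl. UQCR-11 was not called at either age (-0.29 ± 0.17 at D1 and -0.55 ± 0.57 at D10). Reads of paralogs can be split between copies or lost where their sequences are alike. The study's methods name the gene count mode of STAR, which counts reads with 1 match only, for counts used in another step, and do not say that the table was made with it.

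Of 25 other genes known from the testis, 4 were tested at D1, of which 0 were called. At D10 4 were tested and 3 were called higher in Rh1>ClkDN, aly and bam, regulators of spermatogenesis, and kl-3, a dynein heavy chain of the sperm tail. These 3 passed the filter on low counts only through the libraries of Rh1>ClkDN, so that the count is no support for a change of the list. The fourth, fzo, had a log2 fold change of 0.03 and was not called. The kl-3 gene had 7.41, 11.5 and 9.42 CPM in Rh1>ClkDN at D10, and no count in Rh1>Ctrl at D10. At D1 its highest level was 14.46 CPM in replicate 3 of Rh1>Ctrl, against 0.210 to 2.78 CPM in the other libraries of that age. Mst84Db, a gene of mature male germ cells, was at 0 in each library of Rh1>ClkDN at D10 and at most at 0.837 CPM in any library, so that its 0 tells little. Other sparse genes of the list went either way at D10. For example, mia and sa had counts in each library of Rh1>ClkDN and none in Rh1>Ctrl. The highest values of djl (7.96 CPM) and betaTub85D (5.06 CPM) at D10 were in replicate 2 of Rh1>Ctrl. The summed level of the 25 was 67.5 to 91.4 CPM in Rh1>ClkDN at D10 and 39.6 to 62.9 CPM in Rh1>Ctrl at D10. Of this, fzo, which was present in every library, made up 35.7 to 43.9 CPM in Rh1>ClkDN and 31.5 to 40.5 CPM in Rh1>Ctrl. At D1 the sums were 49.2 to 72.9 CPM in Rh1>ClkDN and 28.7 to 129.5 CPM in Rh1>Ctrl, with the highest in replicate 3 of Rh1>Ctrl. The part of testis RNA in the values of the paralogs was not tested.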

How the data were processed

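RNA of immuno-enriched photoreceptor nuclei was sequenced in 12 samples, 3 in each of 4 groups, from an input of 10 ng. The authors deposited a table of 13929 genes under a name that calls the values normalized. Every value is a whole number, and the highest library total is 4.155 times the lowest, which raw counts give and normalized values do not, and the table was tested as raw counts. The authors made these counts by aligning trimmed reads to the genome and counting them per gene, as deposited in 1 table. The labels name Trimmomatic, STAR, SAMtools and DESeq2, and dm6 and BDGP6, as the submitters' processing. The strand setting of the table is not given in the sources used here. The methods name the gene count mode of STAR, which counts reads with 1 match only, for raw counts used in another step.

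The quasi-likelihood test of edgeR 4.0.16 (R 4.3.3), on counts scaled by TMM, was fitted to each pair of groups. Genes entered a fit if 3 or more of its samples had 10 or more counts. Calls needed a fold change over 1.5 and a p under 0.05 after Benjamini-Hochberg adjustment. The interaction used all 12 samples, with the same p threshold and no fold threshold. SE was taken as the size of the log2 fold change over the root of F. Exact permutation tests of single genes were not used, since 3 samples in each group cannot give a p under 0.1. The code was tested on simulated data. Genes were located with Ensembl release 115. No 2 replicates agreed within sampling noise (chi-square of 3.12 to 70.1 for each degree of freedom). They are described as independent biological replicates of pooled flies.

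Named members were those called in a comparison of 2 groups, up to the 6 with the smallest adjusted p in each direction, the 2 with the highest mean CPM in each complex, all of complex II, the 3 paralogs with the highest mean count, and each paralog called. Other members called, and the 4 under an unadjusted p of 0.05 in the interaction, were named after their values were seen. The members and the lists of other genes were chosen with earlier results of these data known. Alternatives were DESeq2 1.42.0, no filter, a mean count of at least 50, library totals without TMM, a replicate block, all 12 samples in one fit, each replicate left out in turn, an adjusted p under 0.01, a fold change over 2 and no fold threshold. Leaving out 3 libraries that stood apart was added after seeing the data. Promoters and other sequences were not analysed here.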

Additional observations from a re-analysis of the deposited data

How the results depend on the processing

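Counts are of all members, paralogs included, with those of the report's settings first. For 5 called higher in Rh1>ClkDN at D1, the counts were 8 with a replicate block, 8 without the 3 libraries that stood apart, 2 at an adjusted p under 0.01, and 2 to 8 with each replicate left out in turn. For 1 called lower at D1 they were 2 at a mean count of at least 50, 5 without the 3 libraries, and 0 to 4 with a replicate left out. For 7 called higher at D10 they were 4 with a replicate block, 3 at an adjusted p under 0.01, 4 at a fold change over 2, and 1 to 7 with a replicate left out. A paralog counted in Rh1>ClkDN only was not tested when one of those replicates was left out. For 2 called lower at D10 they were 1 without a filter, 1 at a mean count of at least 50, 0 with a replicate block, 0 at an adjusted p under 0.01, and 0 to 5 with a replicate left out. For 14 called lower with age in Rh1>ClkDN they were 0 with all 12 samples in one fit, 4 at an adjusted p under 0.01, 7 at a fold change over 2, and 5 to 16 with a replicate left out. For 0 called higher with age in Rh1>ClkDN, the count was 1 at a mean count of at least 50, and 0 to 1 with a replicate left out. Without the 3 libraries, 1 member was called lower with age in Rh1>Ctrl, ND-49, and 0 were with each replicate left out in turn. The median log2 fold change of subunits with a replicate left out was 0.12 to 0.43 at D1, -0.04 to 0.21 at D10, -0.68 to -0.49 with age in Rh1>ClkDN, -0.57 to -0.32 with age in Rh1>Ctrl and -0.27 to 0.05 in the interaction. Without the 3 libraries it was 0.04 at D1, -0.72 with age in Rh1>Ctrl and 0.17 in the interaction, where COX5A stood at 0.030 and not below 0. Without a filter, the median of all genes moved to -0.19 at D1, 0.30 at D10, -0.34 with age in Rh1>Ctrl and 0.32 in the interaction, where that of subunits was 0.36, 0.12, -0.45 and -0.18 in this order. The causes were not tested.

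The replicate numbers did not pair the samples. The correlation of same-numbered samples was -0.091 to 0.047, and not every sample correlated best with its own number. The replicate block therefore adjusts for a number only, and beyond the counts above it moved no count of members by more than 1.5 times.

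With a median of 58.5 counts per library, single subunit genes were measured with few reads, fewest in all in replicate 2 of Rh1>Ctrl at D10, and replicates differed by 3.12 to 70.1 times counting noise. Which of these limited the calls more was not tested. Members with an unadjusted p under 0.05 in edgeR's test of a comparison were followed with each replicate left out. Of these values, 391 kept their side of the threshold, 67 lost a call and 16 gained one.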

Other observations

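Ldh, lactate dehydrogenase, was the 1 gene of the glycolysis list called higher with age in Rh1>ClkDN, with 6.21, 9.40 and 12.6 CPM at D10, against 2.29, 1.39 and 0.765 CPM at D1 (log2 fold change 2.66 ± 0.51, edgeR adjusted p = 0.0017). The ages did not overlap. The ADP/ATP carrier gene sesB had 156.7, 161.4 and 143.5 CPM at D10 in Rh1>ClkDN, against 435, 309 and 299.5 CPM at D1 (-1.18 ± 0.15, edgeR adjusted p = 3.8e-05). Both genes were singled out after their values were seen.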
